A study of Arabidopsis thaliana with 4 samples.

Results

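psaA, psaB, rps14 and ycf3 lie next to each other on one strand of the Arabidopsis thaliana chloroplast genome, and they are 4 of its 130 annotated gene intervals. They were chosen by name and position, as the photosystem I core genes with the 2 genes beside them, and not by their values. psaA and psaB encode the large reaction centre proteins of photosystem I, which together bind its primary electron donor. rps14 encodes a protein of the small subunit of the chloroplast ribosome. ycf3 encodes a chloroplast protein needed to assemble photosystem I and is not itself a part of the finished complex.

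In land plants psaA, psaB and rps14 are transcribed together into a long RNA that is cut into smaller ones. ycf3, upstream of them, carries a pair of introns that are removed by splicing with the help of nuclear-encoded proteins. Many of these helpers are pentatricopeptide repeat (PPR) proteins, which bind RNA in plant organelles and protect, cut, edit or help to splice it.

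The RNA came from immunoprecipitations with an antibody against the HA epitope, carried out on stroma, the soluble content of chloroplasts, of plants 2 weeks old grown in cycles of 12 h light at 21 °C and 12 h dark at 18 °C. One group was the transgenic line dPPRrbcL (2 libraries), whose protein is directed at the mRNA of rbcL, the gene for the large subunit of Rubisco. The other group was wild type (WT, 2 libraries), which went through the same precipitation and shows the background. The labels name no further allele and do not give the promoter of the transgene, the number of lines or whether replicates came from separate plants, so p-values measure only the spread between these libraries. No library of the RNA before precipitation was analysed here, so more of an RNA in the stroma and more recovery with the protein cannot be told apart.

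Coverage, the number of reads over a position, averaged 12917 and 10373 reads per nucleotide over the chloroplast genome in WT replicates 1 and 2 and 12167 and 12762 in dPPRrbcL replicates 1 and 2. Most of it was rRNA and tRNA. The coverage outside those genes was 0.994% and 1.29% of all in WT and 8.48% and 7.50% in dPPRrbcL, so a scaling to the library total raises nearly all mRNAs of the dPPRrbcL line. The values below are therefore given on 3 scalings, beside ratios between genes of one library that need none. The part of this difference in rRNA share in each result was not tested beyond these scalings. rbcL itself was covered by 675 and 777 reads per nucleotide in WT and by 24398 and 22189 in dPPRrbcL.

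All 4 genes are read from the minus strand of the TAIR10.1 chloroplast sequence, in the order ycf3, psaA, psaB, rps14. ycf3 (ArthCp023) spans 42584 to 44591 and has 3 exons with 507 coding bases. Its intron 1 lies at 43752 to 44465 and its intron 2 at 42737 to 43523. psaA (ArthCp022) spans 39605 to 41857, psaB (ArthCp021) 37375 to 39579 and rps14 (ArthCp020) 36938 to 37240, each as 1 exon. Between psaB and psaA lie only 25 bases, at 39580 to 39604. The annotation marks no untranslated regions for them. The region between the flanking tRNA genes trnfM and trnS, at 36778 to 44826, was also read in 12 exons, introns and spacers.

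Some of the results turn on the edges of the ycf3 introns. The 4 splice sites are shown 5′ to 3′ on the transcribed strand, from the TAIR10.1 sequence, with 15 bases on each side and the intron in capitals.
ycf3 intron 1, 5′ splice site: tattacagagatggtGCGATTTGATTATCA
ycf3 intron 1, 3′ splice site: TGACGACCGTAACGGatgtcggctcaatct
ycf3 intron 2, 5′ splice site: gtgatctgtcattacGTGCGACTATCTCCA
ycf3 intron 2, 3′ splice site: TCCGCCTATTCCGACcgtggagaacaggcc
Intron 2 opens with GTGCG at its annotated start. GTGCG or GTGTG, the opening that group II introns usually have, stands at the annotated start of 15 of the 25 chloroplast introns (60%, read on the strand of each gene, both copies of the inverted repeat counted). In intron 1 the same 5 letters begin 2 bases before the annotated start.

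psaA and psaB were the most abundant of these RNAs in every library. psaA was covered by 323 and 389 reads per nucleotide in WT and by 2890 and 2580 in dPPRrbcL. psaB was covered by 412 and 549 reads per nucleotide in WT and by 4007 and 3552 in dPPRrbcL. For both genes the 2 dPPRrbcL libraries lay far above the 2 WT libraries, with no overlap. This separation is not particular to psaA and psaB. On the library total 97.3% of the 112 genes tested were called higher in dPPRrbcL by limma, as described below.

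rps14 was covered by 46.8 and 52.0 reads per nucleotide in WT and by 1283 and 1291 in dPPRrbcL. ycf3, introns included, was covered by 28.6 and 26.2 reads per nucleotide in WT and by 631 and 590 in dPPRrbcL. These groups did not overlap either, which is likewise not particular to rps14 and ycf3. As a ratio, though not in reads per nucleotide, the distance between the groups was wider than for psaA and psaB. As percentages of the library mean, psaA went from 3.12 ± 0.88 in WT to 22.0 ± 2.5 in dPPRrbcL (SD, n = 2 each), psaB from 4.24 ± 1.49 to 30.4 ± 3.6, rps14 from 0.432 ± 0.098 to 10.3 ± 0.30, and ycf3 from 0.237 ± 0.022 to 4.90 ± 0.40.

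**Figure D1:**
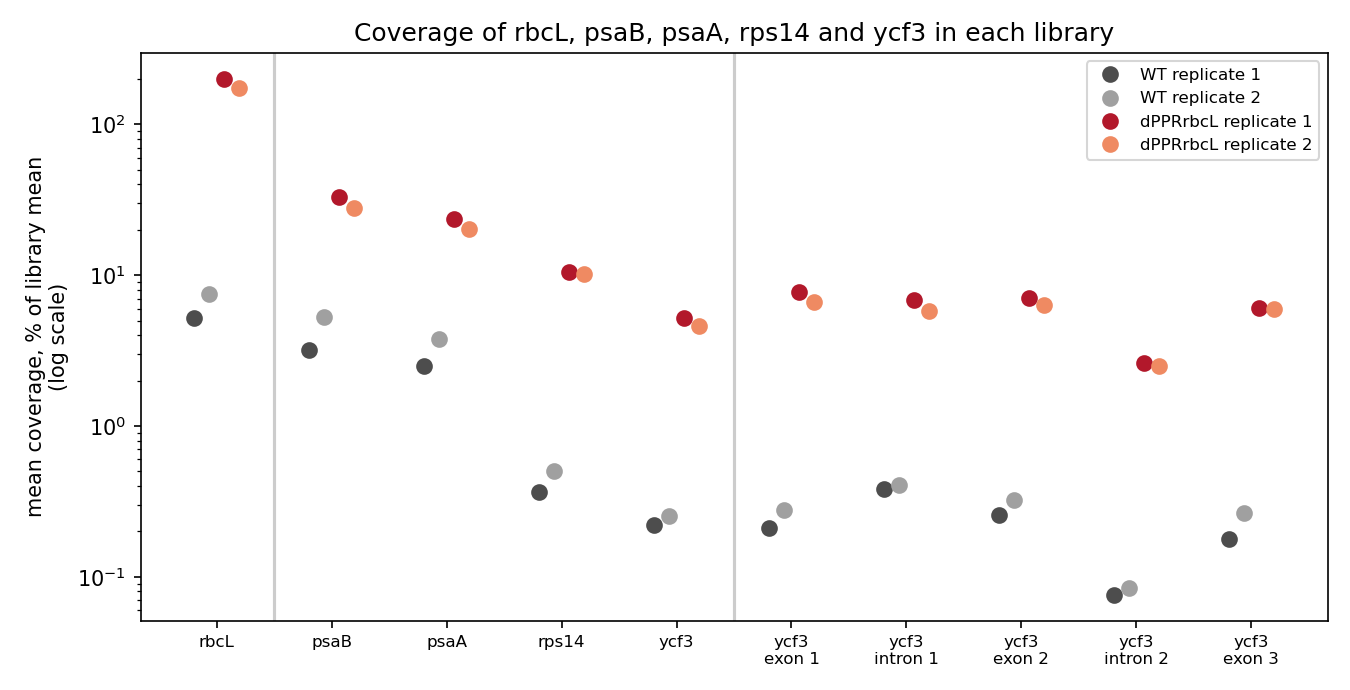
Mean coverage as a percentage of the library mean (log scale) for rbcL, the 4 genes, and the exons and introns of ycf3. Each point is 1 library. The dPPRrbcL points lie above the WT points for every item. The distance on the log scale is wider for rps14, at 10.5% and 10.1% against 0.363% and 0.502%, than for psaA, at 23.8% and 20.2% against 2.50% and 3.75%.

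Scaled to the library total, all 4 genes were higher in dPPRrbcL by limma with Benjamini-Hochberg adjustment, and so were 97.3% of the 112 genes tested, so this count alone says nothing particular about them. No gene was lower in that test, at an adjusted or at an unadjusted p under 0.05. Fold changes are on the log2(coverage + pseudocount) scale, with a pseudocount of 0.1% of the library mean (10.4 to 12.9 reads per nucleotide), which understates the change of genes covered as thinly as ycf3 in WT. The log2 change was 2.80 for psaA (SE 0.22, adjusted p = 9.34e-06, limma) and 2.85 for psaB (SE 0.26, adjusted p = 1.61e-05, limma). It was 4.30 for rps14 (SE 0.18, adjusted p = 1.01e-06, limma) and 3.89 for ycf3 (SE 0.16, adjusted p = 9.89e-07, limma). Without a pseudocount the log2 ratios of the group means were 2.81 for psaA, 2.84 for psaB, 4.58 for rps14 and 4.37 for ycf3.

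The 4 genes fell into a pair of levels when set against the median change of all genes tested, 2.97. psaA and psaB lay 0.17 and 0.12 below that median, at rank 69 and 67 of 112. rps14 lay 1.33 above it, at rank 13, and ycf3 0.92 above it, at rank 20. rbcL, the intended target, lay 1.90 above it, at rank 6, with a log2 change of 4.88. These distances do not depend on the scaling, which moves all genes alike, but they do depend on the pseudocount. With 1% of the library mean, which exceeds the WT coverage of rps14 and ycf3, psaA and psaB lay 0.96 and 1.08 above the median gene, and with 0.01% they lay 0.96 and 0.92 below it. rps14 and ycf3 stayed above the median gene with both.

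Scaled by median ratios over genes, the direction of psaA and psaB turned. The log2 change was -0.96 for psaA (adjusted p = 0.000825, limma) and -0.91 for psaB (adjusted p = 0.00138, limma), both called lower, among a background of 65.2% of genes lower and 12.5% higher. On that scale the median gene stood at -0.79, because the pseudocount lowers the thinly covered majority. rps14 was called higher at 0.54 (adjusted p = 0.0145, limma), and ycf3 did not pass at 0.13 (adjusted p = 0.548, limma). Scaled instead to what lay outside rRNA and tRNA genes, where 33.9% of genes were higher and 28.6% lower, rps14 at 1.49 (adjusted p = 0.000182) and ycf3 at 1.07 (adjusted p = 0.00102) were called higher by limma. psaA at -0.017 (adjusted p = 0.892) and psaB at 0.034 (adjusted p = 0.833) did not pass in limma on that scale.

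**Figure D2:**
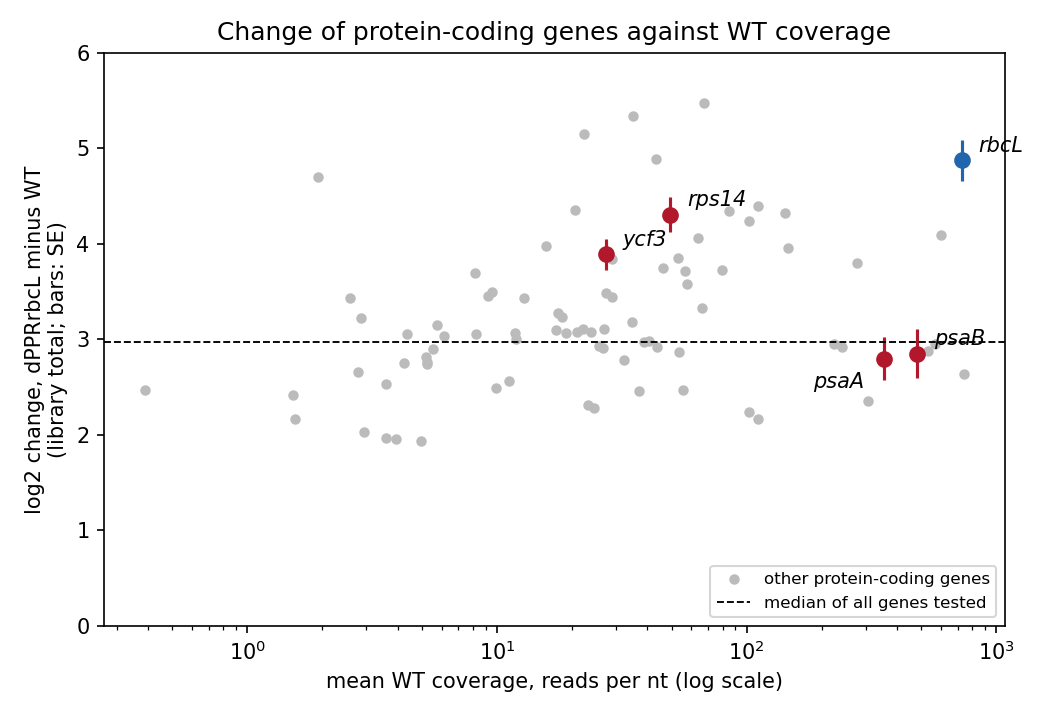
Log2 change scaled to the library total (dPPRrbcL minus WT) against mean WT coverage in reads per nucleotide (log scale) for the protein-coding genes tested. Bars are the SE of the limma fit and the dashed line is the median of all 112 genes, 2.97. rps14 (4.30) and ycf3 (3.89) lie above the line, and psaA (2.80) and psaB (2.85) lie just below it among the most covered genes.

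Over the 85 protein-coding genes tested, WT coverage and log2 change had a Spearman correlation of 0.30 with the pseudocount and of -0.44 over 84 genes without one. This is a description over genes that share the same 4 libraries, and its sign is set by the pseudocount. The genes most like each of the 4 in their course over the 4 libraries were found by the Euclidean distance between log2 scaled coverages, each centred on the gene's own mean. psaA lay closest to petA (distance 0.119), atpB (0.135) and psbC (0.150). psaB lay closest to psbD (0.0583), atpA (0.129) and atpB (0.163). rps14 lay closest to atpF (0.130), atpH (0.184) and psbF (0.225), and ycf3 to petD (0.113), rpl20 (0.128) and atpE (0.189).

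The share of each gene in the summed coverage of the protein-coding genes needs neither a scaling nor a pseudocount. psaA held 9.15% and 9.11% of it in WT and 5.56% and 5.41% in dPPRrbcL. psaB held 11.4% and 12.6% in WT and 7.54% and 7.29% in dPPRrbcL. The shares of both photosystem I genes were thus lower in both dPPRrbcL libraries than in either WT library. This fall was not particular to them. Of the other protein-coding genes covered more than psaA in both WT libraries, psbB, psbC and psbD fell likewise, and rbcL and psbA rose. psbB held 12.5% and 13.1% in WT and 6.71% and 6.85% in dPPRrbcL. psbA held 6.82% and 7.58% in WT and 10.4% and 10.5% in dPPRrbcL.

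Unlike those of psaA and psaB, the share of rps14 rose, with 0.178% and 0.164% in WT and 0.332% and 0.364% in dPPRrbcL. ycf3 held 0.722% and 0.547% in WT and 1.08% and 1.101% in dPPRrbcL. The rise of rps14 and ycf3 was not particular to them. Of the other plastid genes of photosystem I and its assembly, psaI and ycf4 rose likewise, and psaC and psaJ overlapped between the groups. psaI held 0.0302% and 0.0280% in WT and 0.133% and 0.130% in dPPRrbcL. ycf4 held 0.306% and 0.279% in WT and 0.414% and 0.398% in dPPRrbcL. Together psaA, psaB, rps14 and ycf3 made up 21.5% and 22.4% of protein-coding coverage in WT and 14.5% and 14.2% in dPPRrbcL. rbcL alone took 12.2% and 11.6% in WT and 29.97% and 29.73% in dPPRrbcL.

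With rbcL left out of the total, the directions of psaA, psaB, rps14 and ycf3 stayed. psaA held 10.4% and 10.3% in WT and 7.93% and 7.70% in dPPRrbcL, and psaB held 13% and 14.3% against 10.8% and 10.4%. rps14 held 0.203% and 0.185% in WT against 0.473% and 0.518%, and ycf3 0.822% and 0.619% against 1.54% and 1.57%. An exact two-sided permutation test of 2 against 2 libraries cannot go below p = 0.333, so groups that do not overlap are a description here. By coverage per nucleotide among the protein-coding genes, psaB ranked 6 in both WT libraries and 7 and 8 in dPPRrbcL, and psaA ranked 7 in both WT libraries and 11 in both dPPRrbcL libraries. rps14 ranked 28 in both WT libraries and 22 and 20 in dPPRrbcL, and ycf3 ranked 38 and 45 in WT and 31 and 30 in dPPRrbcL.

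Neighbouring genes were compared directly by the ratio of their coverages within each library, tested with limma over the 61 neighbouring pairs on the log2 scale with the pseudocount. In that test 36.1% of pairs were higher in dPPRrbcL and 26.2% lower. The ratio of psaB to psaA was 1.28 and 1.41 in WT and 1.39 and 1.38 in dPPRrbcL. The groups overlapped, and the log2 difference was 0.05 (SE 0.13, adjusted p = 0.701, limma), so no difference beyond the spread between libraries was detected. Leaving out WT replicate 1 gave -0.023.

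The ratio of rps14 to psaB, its upstream neighbour on the same transcript, was 0.114 and 0.0947 in WT and 0.320 and 0.363 in dPPRrbcL. It was higher in both dPPRrbcL libraries, with a log2 difference of 1.45 (SE 0.16, adjusted p = 9.87e-05, limma), the third highest of the 61 pairs. The ratio of psaA to ycf3 was 11.3 and 14.8 in WT and 4.58 and 4.38 in dPPRrbcL. It was lower in dPPRrbcL by a log2 difference of -1.09 (SE 0.17, adjusted p = 0.000732, limma). Without a pseudocount the log2 difference between the group means of these ratios was 1.71 for rps14 to psaB and -1.54 for psaA to ycf3. With a pseudocount of 1% of the library mean the rps14 to psaB difference was 0.38 (adjusted p = 0.0826, limma), and that of psaA to ycf3 turned to 0.24 (adjusted p = 0.189, limma).

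Set against the intended target, rbcL had 2.09 and 2.00 times the coverage of psaA in WT and 8.44 and 8.60 times in dPPRrbcL. The ratio of rbcL to psaB was 1.64 and 1.41 in WT and 6.09 and 6.25 in dPPRrbcL. For rps14 the same ratio moved far less, from 14.4 and 14.9 in WT to 19.0 and 17.2 in dPPRrbcL. For ycf3 it was 23.6 and 29.7 in WT and 38.7 and 37.6 in dPPRrbcL. All 4 ratios were higher in both dPPRrbcL libraries. With rbcL at rank 6 of 112 genes by log2 change, a higher ratio holds for most genes and is not particular to these 4.

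**Figure D3:**
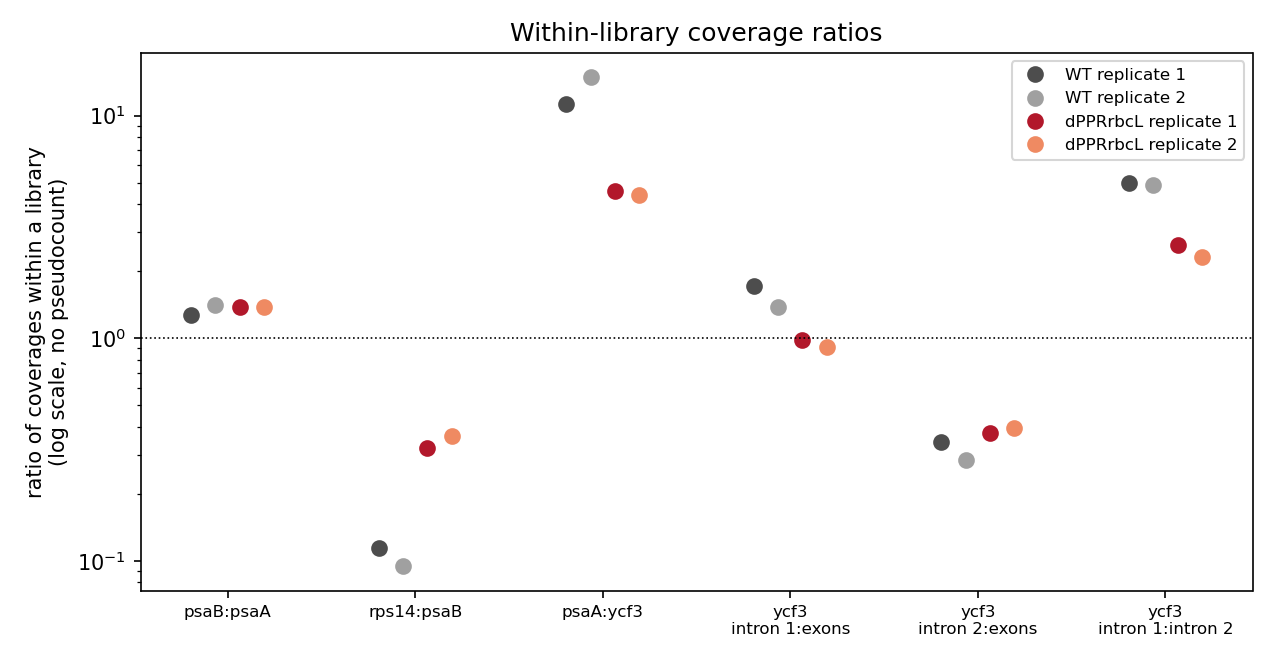
Ratios between coverages within each library (log scale, no scaling and no pseudocount), 1 point per library. The psaB to psaA ratios overlap between the groups at 1.28 to 1.41, the rps14 to psaB ratio is higher in dPPRrbcL (0.320 and 0.363 against 0.114 and 0.0947), and the psaA to ycf3 ratio is lower (4.58 and 4.38 against 11.3 and 14.8).

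psaA and psaB are related genes, identical at 60.1% of 2104 aligned bases. Reads no longer than a shared run could be placed in either gene, and the read length and the handling of such reads are not given in the sources used here. The longest run they share, on the transcribed strand from 40953 to 40984 in psaA and from 38729 to 38760 in psaB, has 32 bases, all in capitals because all of them match.
psaA and psaB shared run: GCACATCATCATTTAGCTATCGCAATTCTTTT
Over these bases psaA was covered by 303 and 436 reads per nucleotide in WT and 2940 and 2592 in dPPRrbcL. psaB was covered by 746 and 1122 in WT and 6515 and 5721 in dPPRrbcL over the same letters, so the copies kept unequal levels in every library.

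The coverage was then followed along the region in windows of 100 bases. Of the 82 windows, all were higher in dPPRrbcL on the library total by limma, beside 95.7% of the 1373 windows tested over the genome, with 0.874% of those lower. No window of the region was lower at an adjusted or unadjusted p under 0.05. Their median log2 change was 3.15, beside 2.74 for all windows. Scaled by median ratios, 5 windows were higher and 42 lower by limma, beside 6.12% and 69.1% over the genome, and these lower windows included 19 of the 21 in psaA and 17 of the 21 in psaB. Of the 19 windows in ycf3, 1 was higher and 0 were lower on that scale.

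**Figure D4:**
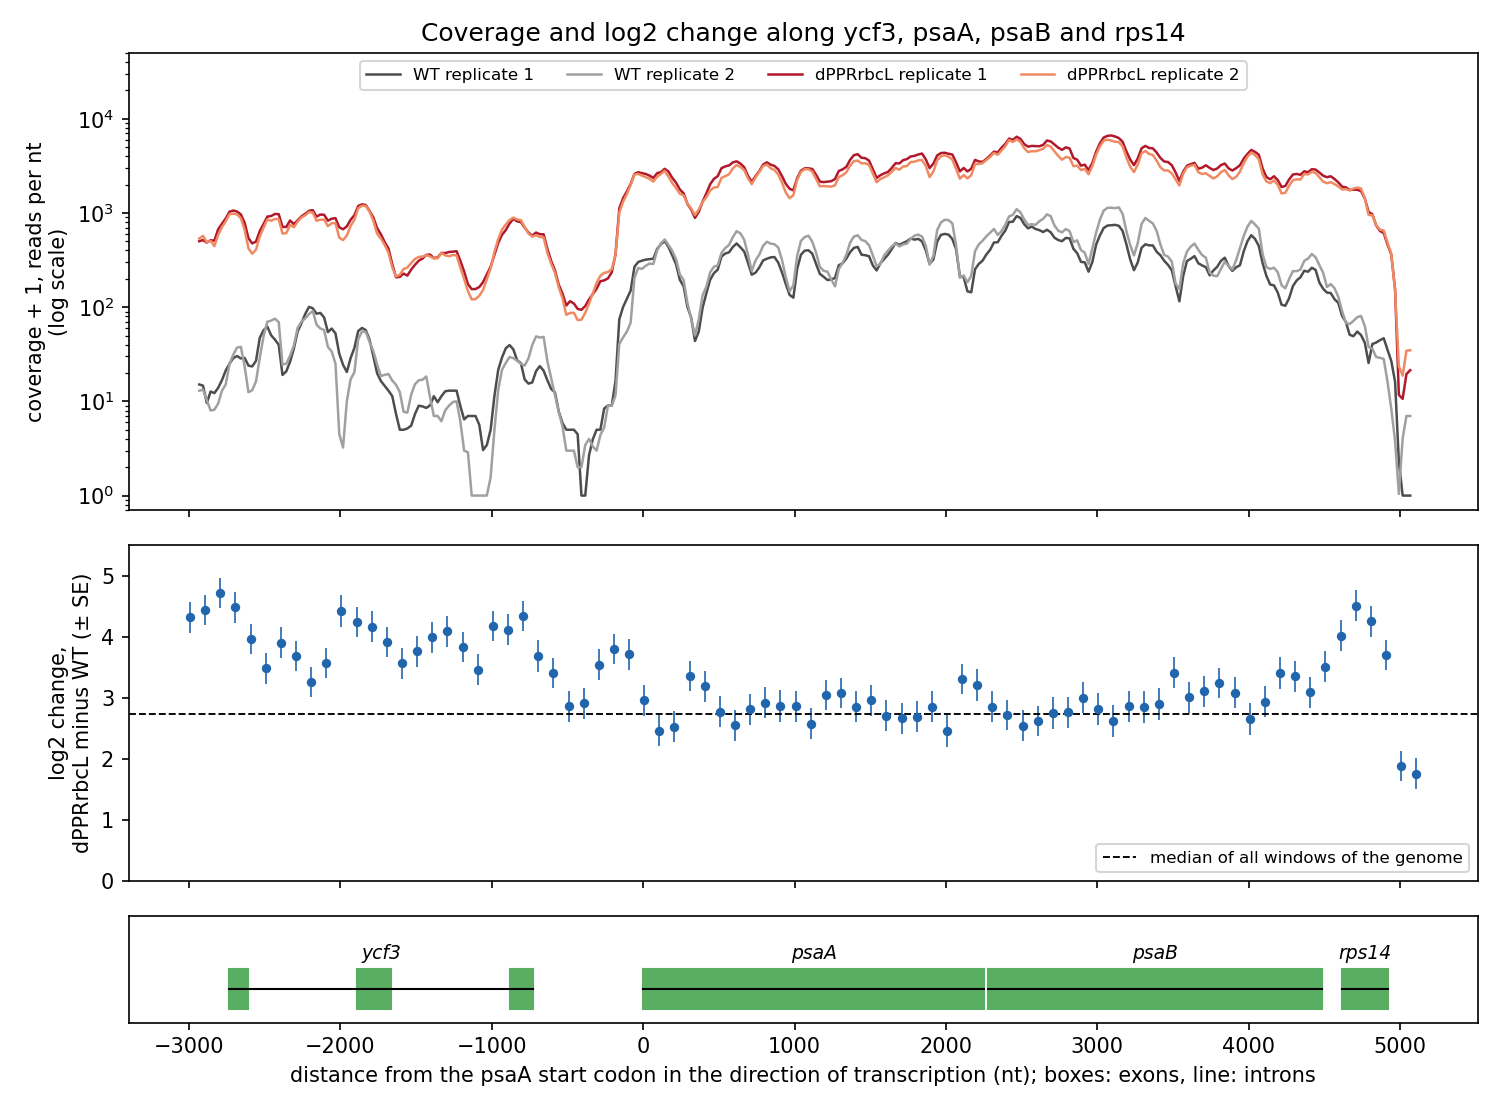
Coverage + 1 in reads per nucleotide (log scale), log2 change per 100-base window (dPPRrbcL minus WT, scaled to the library total, bars are SE) and gene models, by distance from the psaA start codon in the direction of transcription. The dashed line is the median of all genome windows, 2.74. psaA and psaB lie near it, the windows of ycf3 and rps14 lie above it, and the region ends in a pair of low windows (1.88 and 1.76) past rps14. The WT coverage of that pair, 1.03 to 3.63 reads per nucleotide, is below the pseudocount, which understates their change.

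The 3 highest changes were at the ends of the region. The window at 44601 to 44700, upstream of ycf3, changed by 4.72, with 15.3 and 10.7 reads per nucleotide in WT and 715 and 647 in dPPRrbcL. The window at 37101 to 37200 in rps14 changed by 4.51, with 50.6 and 73.7 reads per nucleotide in WT and 1750 and 1812 in dPPRrbcL. The window at 44501 to 44600, over ycf3 exon 1, changed by 4.49. The 3 lowest were the windows at 36701 (1.76) and 36801 (1.88), by the trnfM end, and the window at 39801 to 39900 in psaA (2.46). The window at 36701 had 1.03 and 2.53 reads per nucleotide in WT and 32.1 and 41.1 in dPPRrbcL. The window at 36801 had 3.63 and 2.97 in WT and 42.7 and 50.5 in dPPRrbcL. The pseudocount, larger than the WT coverage of both, understates their change and sets their low rank. That psaA window was among the best covered, with 574 and 813 reads per nucleotide in WT and 4279 and 3932 in dPPRrbcL.

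The rps14 and the psaA window are also the highest and the lowest of the 46 windows that lie inside exons of these genes. They are shown in lower case, 5′ to 3′ on the transcribed strand of TAIR10.1, to set the ends of that range side by side.
rps14 window, 37101 to 37200: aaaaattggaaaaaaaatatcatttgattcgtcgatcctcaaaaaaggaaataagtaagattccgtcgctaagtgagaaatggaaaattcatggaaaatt
psaA window, 39801 to 39900: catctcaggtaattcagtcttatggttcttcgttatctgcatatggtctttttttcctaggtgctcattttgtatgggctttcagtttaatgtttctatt
The GC content is 29% in the rps14 window and 35% in the psaA window. Whether base composition has a part in the difference was not tested.

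Within psaA and psaB the profiles of the groups had much the same shape. Over their 42 windows, WT and dPPRrbcL coverage had a Spearman correlation of 0.91, a description over windows that share libraries and transcripts. The best covered psaA window had 6.17 and 7.90 times the coverage of the least covered one in WT and 3.59 and 3.28 times in dPPRrbcL. In psaB the same ratio was 6.30 and 5.56 in WT and 3.06 and 3.12 in dPPRrbcL. The dPPRrbcL profiles were thus flatter in both genes. In psaB the WT coverage of a window and its log2 change had a Spearman correlation of -0.97 over 21 windows, and WT coverage enters both measures.

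The highest position of psaA lay 2008 and 2010 bases from the start codon in WT and 1986 and 1987 bases in dPPRrbcL, near the 3′ end in all libraries. The highest position of psaB lay at base 191 in WT replicate 1, and at bases 814, 813 and 781 in the other libraries. In ycf3 it lay inside intron 1 in WT, at bases 527 and 553, and in exon 2 in dPPRrbcL, at bases 891 and 889. The coverage before the midpoint of the coding bases of a gene, introns left out, was divided by that after it. This ratio was tested with limma over 85 genes, of which 27.1% were higher and 16.5% lower in dPPRrbcL. None of the 4 genes was called, with log2 differences of -0.09 for psaA (adjusted p = 0.581, limma), -0.33 for psaB (adjusted p = 0.0554, limma), 0.44 for rps14 (adjusted p = 0.106, limma) and 0.04 for ycf3 (adjusted p = 0.841, limma).

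The spacers between the genes were covered too. The spacer from rps14 to psaB, at 37241 to 37374, was covered by 129 and 163 reads per nucleotide in WT and by 2314 and 2034 in dPPRrbcL, a log2 change of 3.69 that lies between those of psaB and rps14. The short spacer between psaB and psaA was covered by 356 and 562 reads per nucleotide in WT and 3725 and 3638 in dPPRrbcL, about the level of the genes on its sides. The spacer from psaA to ycf3, at 41858 to 42583, was covered by 49.7 and 39.4 reads per nucleotide in WT and 659 and 628 in dPPRrbcL (log2 change 3.45). All 12 exons, introns and spacers of the region were higher in dPPRrbcL on the library total by limma, beside 98.4% of the 246 tested. By median ratios 4 of the 12 were higher and 3 lower, beside 11.4% and 63.8%, and on the scale without rRNA and tRNA 9 of them passed as higher and 0 as lower, beside 37.4% and 30.9%. The segments called higher on every scale were rps14, exons 1 and 3 of ycf3 and the spacer upstream of ycf3.

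The spacer from psaA to ycf3 had 0.154 and 0.101 times the coverage of psaA in WT and 0.228 and 0.244 times in dPPRrbcL. Inside it the coverage dropped to a low point in nearby places in all libraries, between 42224 and 42309. The lowest stretch of 50 bases was centred between 392 and 428 bases upstream of psaA. It was covered by 0 and 1 reads per nucleotide in WT and by 93.7 and 71.7 in dPPRrbcL. The 100-base window at 42201 had 1.25 and 1.90 reads per nucleotide in WT and 103 and 85.7 in dPPRrbcL. Its log2 change of 2.91 is held down by the pseudocount, which exceeds that WT coverage. WT coverage also fell to 0 at positions inside ycf3, so a gap in the RNA cannot be told apart here from thin WT coverage. The spacer upstream of ycf3, at 44592 to 44826, was covered by 14.2 and 11.2 reads per nucleotide in WT and 619 and 597 in dPPRrbcL, with the highest log2 change of the 12, 4.57. Because strand was not separated, reads of the plus-strand trnS gene beside it cannot be told apart from reads of ycf3. Downstream of rps14 the spacer to trnfM, at 36778 to 36937, was covered by 8.24 and 4.55 reads per nucleotide in WT and 114 and 122 in dPPRrbcL. It had the lowest log2 change of the spacers, 2.77, but its WT coverage is below the pseudocount, which understates its change and sets that rank.

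Coverage was also compared between the 100 bases on each side of every start and stop codon. The 100 bases before the rps14 start had 2.12 and 2.13 times the coverage of its first 100 coding bases in WT and 1.26 and 1.13 times in dPPRrbcL. The 100 bases after the psaB stop had 0.603 and 0.550 times the coverage of its last 100 coding bases in WT and 0.859 and 0.810 times in dPPRrbcL. The 100 bases before the psaA start had 0.728 and 0.615 times the coverage of its first 100 coding bases in WT and 0.972 and 1.02 times in dPPRrbcL. Over the starts and stops of the 4 genes, 6 of 8 such ratios were nearer to 1 in both dPPRrbcL libraries than in either WT library. The exceptions were the stops of rps14 (0.309 and 0.142 in WT, 0.258 in both dPPRrbcL libraries) and of ycf3 (1.096 and 1.60 in WT, 0.830 and 0.763 in dPPRrbcL). Only 25 bases lie between the psaA stop and the psaB start, so the 100 bases outside each reach into the other gene. The ratios at that stop and that start share bases and are not separate. These ratios were not computed for other genes, so the count cannot be read as particular to this region. Some rest on thin WT coverage, such as 16.5 and 12.3 reads per nucleotide before the ycf3 start.

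Within ycf3 the exons were covered to much the same level. Exon 1 had 27.4 and 29.0 reads per nucleotide in WT and 940 and 850 in dPPRrbcL. Exon 2 had 33.3 and 33.7 in WT and 855 and 806 in dPPRrbcL, and exon 3 had 23.2 and 27.4 in WT and 743 and 761 in dPPRrbcL. Their log2 changes were 4.402, 4.12 and 4.27, all above the median of the 116 exons tested, 3.06.

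The introns of ycf3 were far apart. Intron 1 had 49.2 and 42.4 reads per nucleotide in WT, more than any exon, and 827 and 736 in dPPRrbcL, a log2 change of 3.69. Intron 2 had 9.83 and 8.72 reads per nucleotide in WT, less than any exon, and 316 and 319 in dPPRrbcL. Its log2 change of 3.88 was the highest of the 24 chloroplast introns tested, whose median was 2.33. Coverage of intron 1 was 5 and 4.86 times that of intron 2 in WT and 2.61 and 2.31 times in dPPRrbcL, with no overlap.

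The ratio of an intron to the exons of its gene was tested with limma over 24 introns, of which 12.5% were higher and 37.5% lower in dPPRrbcL. Intron 1 had 1.71 and 1.38 times the coverage of the ycf3 exons in WT and 0.982 and 0.916 times in dPPRrbcL. It was lower in dPPRrbcL by a log2 difference of -0.54 (SE 0.13, adjusted p = 0.00799, limma). The call was lost without dPPRrbcL replicate 1 (-0.59, adjusted p = 0.0525, limma), without dPPRrbcL replicate 2 (-0.50, adjusted p = 0.104, limma) and with median in place of mean coverage (-0.46, adjusted p = 0.151, limma).

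Intron 2 had 0.342 and 0.285 times the coverage of the exons in WT and 0.376 and 0.397 times in dPPRrbcL. Its tested log2 difference was -0.35 (SE 0.13, adjusted p = 0.0535, limma), opposite in sign to the plain ratios, since its WT coverage is below the pseudocount. With the pseudocount of 0.01% it was 0.20 (adjusted p = 0.521, limma), so no direction can be given for intron 2.

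At the splice sites shown above, coverage over the 25 intron bases next to the site was divided by that over the 25 exon bases next to it. At the 5′ site of intron 1 the ratio was 0.797 and 0.795 in WT and 0.694 and 0.646 in dPPRrbcL. At the 5′ site of intron 2 it was 0.837 and 0.781 in WT and 0.614 and 0.660 in dPPRrbcL. Both were lower in dPPRrbcL, as was the median of the 21 other introns with coverage there, 1.01 and 1.02 in WT and 0.815 and 0.909 in dPPRrbcL.

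At the 3′ site of intron 1 the ratio was 0.672 and 0.444 in WT and 0.807 and 0.762 in dPPRrbcL. At the 3′ site of intron 2 it was 0.949 and 0.926 in WT and 0.798 and 0.856 in dPPRrbcL. The introns thus moved in opposite directions at their 3′ ends, where the median of 22 other introns was 0.798 and 0.804 in WT and 0.875 and 0.898 in dPPRrbcL. No ratio was near 0, so intron sequence next to all 4 splice sites was recovered in both groups. Coverage does not tell reads that span a splice junction from reads of unspliced RNA.

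The rest of the photosystem I genes of the chloroplast genome and its other assembly gene were also higher. psaI and psaJ encode small subunits, psaC the subunit that carries the terminal iron-sulfur clusters, and ycf4 another assembly protein. All 4 were higher in dPPRrbcL on the library total by limma, with a median log2 change of 3.40, beside 2.97 over all 112 genes. psaI changed by 5.16, ycf4 by 3.75, psaJ by 3.06 and psaC by 2.97. psaI was covered by 21.1 and 23.6 reads per nucleotide in WT and 1363 and 1224 in dPPRrbcL. On the median-ratio scale 1 of the 4 was higher and 2 were lower by limma. Over all genes 97.3% were higher on the library total, and 12.5% were higher and 65.2% lower by median ratios.

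The other genes of the small ribosomal subunit had 14 intervals, of which 13 passed the coverage filter and were all higher by limma, with a median log2 change of 3.0 and a range of 2.17 to 4.36. rps14, at 4.30, lay near the top of that range. On the median-ratio scale 1 of the 13 was higher and 9 were lower. These counts are near the shares over all genes, 97.3% higher on the library total and 65.2% lower by median ratios. The other intron-containing genes had 22 tested intervals with a median log2 change of 2.37, beside 3.89 for ycf3, and on the median-ratio scale 1 was higher and 18 were lower by limma, beside 12.5% and 65.2% of all genes.

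The bases upstream of the rbcL start codon, 54801 to 54957 on the plus strand, were searched for exact matches to the region, since the dPPRrbcL protein is directed at the rbcL mRNA. The start of this stretch was taken from the window that ranked highest over the genome in earlier results of these data. The stretch was thus not chosen independently of the values. The longest match of each 100-base window on either strand had a median of 7 bases and a maximum of 11 in the 82 windows, and 0 of the 82 held a match of 12 bases or more. Of all 1543 windows of the chloroplast genome outside that stretch, 11 (0.713%) held such a match. The longest match in sense orientation lies in ycf3 intron 2, at 42967 to 42977, in capitals because all its bases match rbcL 54865 to 54875.
ycf3 intron 2 match: TTAATTAAATC
The window that holds it changed by 3.46, within the range of the ycf3 windows, 3.26 to 4.43. A match of letters is a description and not a binding site, and the binding motif of the protein was not used here.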

How the data were processed

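RNA recovered by immunoprecipitation was sequenced from 2 dPPRrbcL and 2 WT stroma extracts, with 50 ng of RNA per library, per the labels' protocols. The authors deposited, per the file headers, read coverage (a signal in whole reads per nucleotide) for positions 1 to 154478 of the chloroplast genome. The deposited signal has no recorded normalization; the mapper, build, read length and strand handling are not given in the sources used here. The length matches the chloroplast of TAIR10.1, whose RefSeq annotation was used (86 protein-coding, 37 tRNA and 7 rRNA intervals).

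Mean coverage per gene, segment or window was scaled to the library mean (main), by median ratios over gene intervals, or to what lay outside rRNA and tRNA genes. Log2 was taken after adding a pseudocount of 0.1% of the library mean, the same number of reads under each scaling. A pseudocount of 1% would exceed the WT coverage of rps14 and ycf3. Features with a mean coverage of at least 10 were tested with limma 3.58.1 in R 4.3.3 (lmFit and eBayes, no covariate, Benjamini-Hochberg at 0.05 over all features of a family). limma pools the spread over features, and its small p-values with 2 libraries per group rest on that. The script was tested on simulated data. Description used Python 3.11.15, numpy 2.4.6, pandas 2.3.3, scipy 1.17.1 and biopython 1.88. Neighbouring positions share reads, so no counting interval was computed, and the number of libraries limits the precision.

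The genes, gene lists, tests and alternatives were chosen with earlier results of these data known. Named genes are the 4 genes, rbcL, 3 lists, the 3 nearest genes to each of the 4, and the 3 windows with the highest and lowest change. Alternatives were the scalings, pseudocounts of 1% and 0.01%, no filter, median coverage, windows of 50 and 200 bases, flanking exons only, a replicate block, and each library left out. The crossed pairing was added after seeing the data.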

Additional observations from a re-analysis of the deposited data

How the results depend on the processing

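The scaling and the pseudocount moved the results most, as 2 libraries per group and thin WT coverage limit them. By median ratios and by coverage outside rRNA and tRNA genes, 14 and 38 genes were higher in place of 109, and 73 and 32 lower in place of 0. Of the windows of the region 5 and 36 were higher in place of 82, and 42 and 2 lower, and by median ratios 4 of 12 segments were higher and 3 lower. Windows of 50 and 200 bases gave 162 and 42 higher. The log2 changes became -0.96 and -0.017 for psaA (gene and exon) and -0.91 and 0.034 for psaB, and by median ratios 0.13 for ycf3, -0.32 for the spacer from psaA to ycf3, -0.072 for that from rps14 to psaB, -0.078 for ycf3 intron 1, and -0.99 for the spacer from trnfM to rps14 (-0.044 outside rRNA and tRNA). With pseudocounts of 1% and 0.01% the distance from the median gene was 0.96 and -0.96 for psaA, 1.08 and -0.92 for psaB, 1.46 and 0.77 for rps14, and 0.73 and 0.52 for ycf3. It was 1.43 for rps14 with no filter, and 1.21 for rps14 and 1.096 for ycf3 with median coverage. With 1% the psaA to ycf3 difference was 0.24 and that of rps14 to psaB 0.38, the difference before against after the midpoint was 0.77 for rps14 and 0.36 for ycf3 (-0.15 with 0.01%), and that of ycf3 intron 2 was -0.88 (0.20 with 0.01%). Median coverage gave -0.46 for intron 1. Other causes than the construction of these scales were not tested.

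Leaving out each library gave 105 to 109 genes higher and 0 to 1 lower, and differences of -0.023 to 0.13 for psaB to psaA, -0.65 to -0.44 for ycf3 intron 1 and -0.47 to -0.24 for intron 2. The difference before against after the midpoint ranged from -0.36 to -0.30 for psaB, 0.14 to 0.73 for rps14 and -0.043 to 0.13 for ycf3. Gene changes ranged from 2.52 to 3.08 for psaA, 2.49 to 3.21 for psaB, 4.12 to 4.49 for rps14 and 3.81 to 3.97 for ycf3, all called.

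The labels link the same-numbered libraries only by their number. Deviations of these libraries from the group means had a correlation of -0.40 over 112 genes. With 2 libraries per group this cannot show whether they were paired. With the replicate number as a block 105 genes were higher and 0 lower, the rps14 midpoint difference of 0.44 passed (adjusted p = 0.037, limma) and so did ycf3 intron 2 at -0.35 (adjusted p = 0.0455, limma). The block changed no other call on the 4 genes. The crossed pairing, chosen after seeing the data, gave 109 genes higher and 1 lower, with the rps14 midpoint difference of 0.44 past the threshold.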
